A study of Sus scrofa with 4 samples.

Results

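The heat shock proteins and ER chaperones were followed across adipogenic differentiation and stimulation of porcine adipocytes. The genes were taken from the annotation of the array: a name that began with HSPA to HSPE, HSPH or HSP and a digit, with DNAJA, DNAJB or DNAJC, with PDIA, CCT or BAG and a digit, or with ERO1, or that was CALR, CANX, DDIT3, ATF4, XBP1, SEL1L, HERPUD1, P4HB or TRIB3. This gave 50 of 34853 gene names and 145 of 43803 spots. Of the 9 names given in full, SEL1L, HERPUD1, P4HB and TRIB3 were not matched as gene names and are not among the 50. Probes that the annotation describes as SEL1L are given with other such probes at the end. The study used PIP cells, a line of porcine intramuscular preadipocytes, and pMA, the adipocytes obtained from it after 4 days in differentiation medium with insulin, dexamethasone, octanoate and oleate. The 4 groups were PIP cells without stimulation, pMA without stimulation, pMA given 100 μM serotonin for 12 h, and pMA given 2.5 μg/mL TNF-α for 12 h. All pMA groups therefore shared the differentiation agents, which PIP cells did not receive, and all cells came from 1 line. The label of the serotonin sample gives the dose per ml, whereas the methods give it as a concentration. Each group was measured on 1 array, so no difference could be set against a spread between cultures and no test was run. The methods mention RNA pooled within the group only in a passage that names a mouse array. Their passage on the porcine array does not mention pooling.

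Chaperones bind proteins that are not folded or have lost their fold. In the cytosol the HSP70 proteins work with J proteins (DNAJ), which bring the substrate and stimulate the ATPase, and with BAG proteins and HSP110, which exchange the nucleotide. HSP90 acts later on partly folded clients, the small heat shock proteins hold clients without ATP, and the chaperonins CCT and HSPD1/HSPE1 enclose them. In the endoplasmic reticulum (ER) the HSP70 protein HSPA5 (BiP), the HSP90 protein HSP90B1 (GRP94), the lectins CALR and CANX and the disulfide enzymes PDIA and ERO1 serve secreted and membrane proteins. When unfolded proteins accumulate there, the sensors ATF6, IRE1 (ERN1) and PERK (EIF2AK3) start the unfolded protein response through ATF6, XBP1 and ATF4. ATF4 in turn drives DDIT3 (CHOP). Adipocytes secrete adipokines and store lipid, and the response is known to be engaged in obese adipose tissue.

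Probes of 60 bases carried the measurement. Of the 50 genes, 23 rested on 1 probe and 27 on several. The probes of HSPA5, HSPB3 and HSP27 are given because the first is the ER chaperone that differed most with differentiation, and the others are the small heat shock proteins that were lowest after serotonin. HSPA5 and HSPB3 had no second probe under their names. The sequences are those of the array design, 5′ to 3′, with no part marked by capitals.
HSPA5: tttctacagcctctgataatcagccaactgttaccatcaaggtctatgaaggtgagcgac
HSPB3: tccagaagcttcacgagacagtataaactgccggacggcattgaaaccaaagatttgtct
HSP27: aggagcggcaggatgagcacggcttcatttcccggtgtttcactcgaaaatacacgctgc
Each of the 3 probes could be read without a stop codon in 2 of 3 forward frames. The files gave no genome position for these probes. HSP70 and HSP90 proteins form families of similar sequence. Probes of different HSP70 or HSP90 genes shared at most 10 bases in a row, with HSPA4L, HSPA12A, HSPA13 and HSPH1 not included. The probes lie at different positions and were compared only with each other, so binding of a probe to the transcript of a related gene was not tested.

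Values are log2 levels, the processed Cy3 intensity of the brightest probe of a gene over the 75th percentile of its array. Levels are compared between arrays and not between genes. The only measured error was that of repeated spots within an array, whose standard deviation (SD) on the log2 scale was 0.14 for PIP, 0.16 for pMA, 0.11 for serotonin and 0.18 for TNF-α. This gave a technical SD of 0.21 for a log2 ratio of pMA to PIP, 0.19 for serotonin to pMA and 0.24 for TNF-α to pMA. It does not cover the spread between cultures. Of the 50 genes, 46 were well above background on all 4 arrays, 1 (HSP70) on 3, and PDIA2, DNAJC5B and DNAJC6 on none. The choice of scaling moved the whole comparison of pMA with PIP: the median log2 ratio of all gene names was 0.12 after scaling to the 75th percentile and -0.22 after scaling to the median. The median of 8 bright spike-in probes was -0.38 in that comparison, and -0.14 and -0.08 for serotonin and TNF-α against pMA. All 4 arrays lay on 1 slide, and array and group cannot be told apart.

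The labelled cell types were checked against marker genes. Of 9 adipocyte markers with a ratio, 5 were at least 2-fold higher in pMA than in PIP. Of all 18633 gene names with a ratio 1852 were that much higher, and 13.5% differed 2-fold in either direction. The 5 markers included CD36 (-3.99 in PIP, 1.18 in pMA), PLIN2 (0.29 and 3.42) and CIDEC (-4.69 and -0.82), genes of fatty acid uptake and lipid droplets. The probes of CD36 gave log2 ratios from 1.19 to 5.17 and those of CIDEC from 0.75 to 3.88. LPL (log2 ratio 0.38), LEP (0.31) and LIPE (0.12) differed less than 2-fold. ADIPOQ, PLIN1 and CEBPA, which also define adipocytes, were not well above background in unstimulated pMA. ADIPOQ was well above background only in PIP, at -4.53. The summed linear level of the 11 adipocyte markers was 6.4 in PIP, 19.8 in pMA, 44.7 after serotonin and 26.6 after TNF-α, in units of the 75th percentile. The markers did not move together: PLIN2, LPL and CD36 were higher after serotonin than in pMA, whereas FABP4 was 6.83-fold lower, and PPARG differed by -0.08 on the log2 scale. After TNF-α FABP4 was 2.72-fold higher than in pMA. The summed level of 6 fibroblast or preadipocyte markers was 856, 927, 622 and 776 in the same order of groups. All 5 that had a ratio were lower after serotonin (median log2 ratio -0.88). The 6 skeletal muscle markers summed to 643, 658, 175 and 610, nearly all of it ACTA1. Of that list MYOG, DES and CKM were also well above background on all arrays, and MYOD1 and MYF5 on none. The 3 macrophage or leukocyte markers summed to 1.61 in PIP, 2.14 in pMA, 1.99 after serotonin and 3.1 after TNF-α, with CD14 and AIF1 well above background on all arrays and CD163 on none. The 5 endothelial markers summed to 1.59, 1.16, 0.48 and 1.16 in the same order. PECAM1 and KDR were well above background on all arrays, and CDH5 and TEK on none. PECAM1 was 2.75-fold lower after serotonin than in pMA. In bulk RNA, fewer cells of a type and less RNA per cell cannot be told apart. The part of these marker shifts in the results on serotonin was not tested.

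Between PIP cells and pMA, 5 of the 47 chaperone genes with a ratio were at least 2-fold lower in pMA and none was 2-fold higher. They were HSPA5, HSP90B1, PDIA4, DNAJC17 and HSP70. This was 10.6% of the genes. Of all 18633 gene names with a ratio 13.5% differed 2-fold in either direction, so the share of all calls was not above the background. At least 2-fold lower were 3.56% of all gene names. The background was mostly higher in pMA (1852 higher, 663 lower). The median log2 ratio of the chaperone genes was -0.23, beside 0.12 over all gene names, and 15 were above and 32 below 0. After serotonin, HSPB8 was at least 2-fold higher and HSPB3 at least 2-fold lower than in unstimulated pMA, 4.26% of 47 genes against a background of 6.82% of 19095. Their median log2 ratio was 0.15, beside 0.01 over all gene names. After TNF-α none of 46 genes differed 2-fold, against a background of 3.56% of 19782, and the ratios lay between -0.52 and 0.68 with a median of -0.05. Both stimulations were compared with the same pMA array, so the ratios of a gene in these comparisons are not independent.

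**Figure D1:**
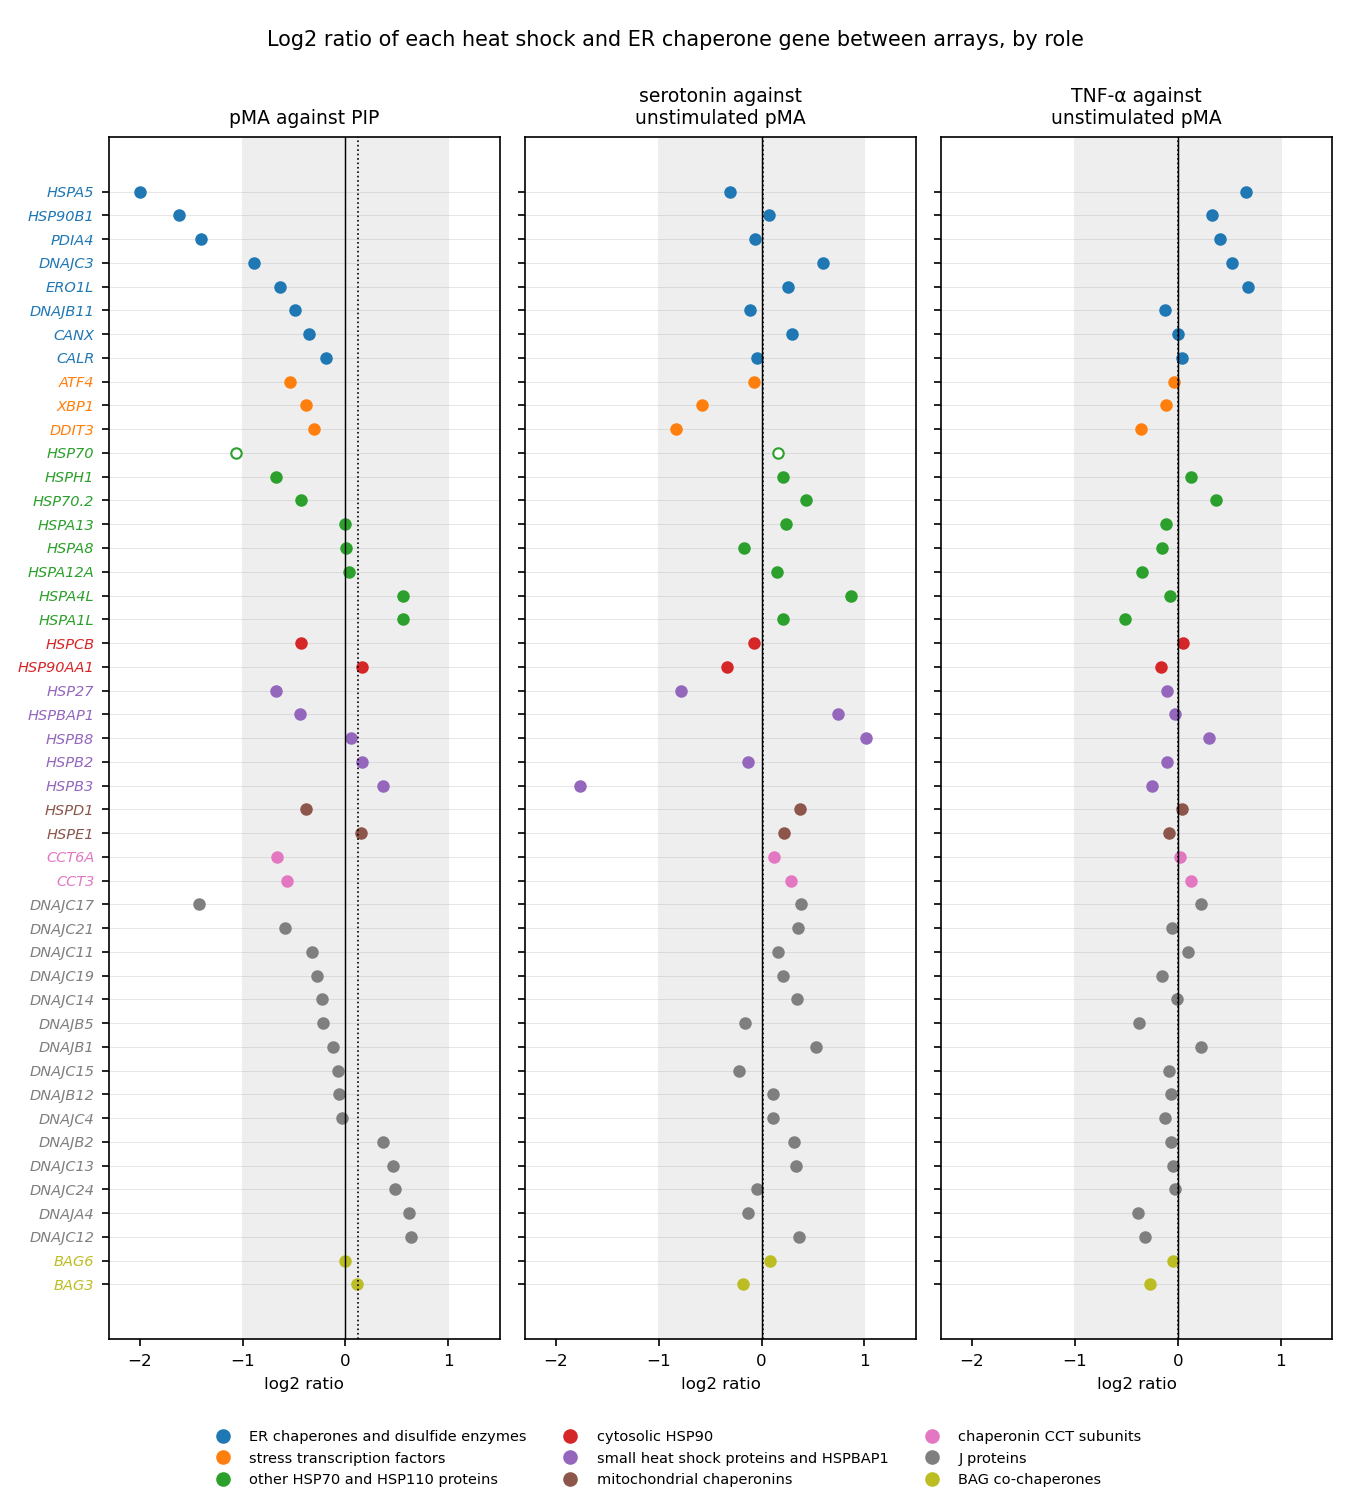
Log2 ratio of each heat shock and ER chaperone gene (rows, coloured by role) in pMA against PIP, serotonin against unstimulated pMA and TNF-α against unstimulated pMA (panels). Each point is the brightest probe on 1 array per group, open circles are lower bounds of the change, the shaded band holds changes below 2-fold and the dotted line is the median of all gene names. The ER chaperones lie left of 0 with differentiation, HSPB8 and HSPB3 leave the band after serotonin, and no gene leaves it after TNF-α.

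All 8 genes with a ratio that were listed under the role of ER chaperones and disulfide enzymes were lower in pMA than in PIP cells. HSPA13, a microsomal HSP70 listed with the other HSP70 proteins, had a log2 ratio of -0.01. The median log2 ratio of the 8 listed genes was -0.76, beside 0.12 over all gene names. At least 2-fold lower were 3 of the 8, where 3.56% of all gene names (663 of 18633) were that much lower. HSPA5, the ER HSP70 and a main target of the unfolded protein response, had a log2 level of 3.91 in PIP, 1.91 in pMA, 1.60 after serotonin and 2.57 after TNF-α. PIP cells were the highest, and HSPA5 was 4.00-fold lower in pMA. HSP90B1, the ER HSP90, was 7.52 in PIP, 5.90 in pMA, 5.97 after serotonin and 6.23 after TNF-α, and was 3.06-fold lower in pMA than in PIP. It was the best covered of these genes: its 8 probes gave log2 ratios from -2.16 to -1.15. PDIA4, a disulfide isomerase, was 4.06 in PIP, 2.66 in pMA, 2.59 after serotonin and 3.06 after TNF-α, a 2.65-fold difference between PIP and pMA. A faint probe outside the gene name, annotated as PDIA4, went the other way (log2 ratio 1.63). That probe also had the opposite sign for TNF-α against pMA (-0.18) and for serotonin against TNF-α (0.61), so the direction of PDIA4 depended on the probe.

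The other ER members differed less. DNAJC3 (P58IPK), a J protein of the ER lumen, was 2.10 in PIP and 1.21 in pMA, a log2 ratio of -0.89, and its other probe gave -0.61. ERO1L, the oxidase that recharges disulfide isomerases, had a ratio of -0.63 on its brighter probe and 0.06 on the other. DNAJB11, a cofactor of HSPA5, had -0.49 with all 3 probes below 0. The lectin chaperones differed least, with a log2 ratio of -0.35 for CANX and -0.19 for CALR. For CALR the difference was below the technical SD of a ratio. After scaling to the median all of these ratios would be lower still, whereas the spike-in shift of -0.38 is as large as the ratio of CANX. PDIA2, a disulfide isomerase known from the pancreas, was not well above background on any array. A probe annotated as PDIA6, outside the rule because its gene name is not a symbol, gave 4.76 in PIP and 4.02 in pMA.

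**Figure D2:**
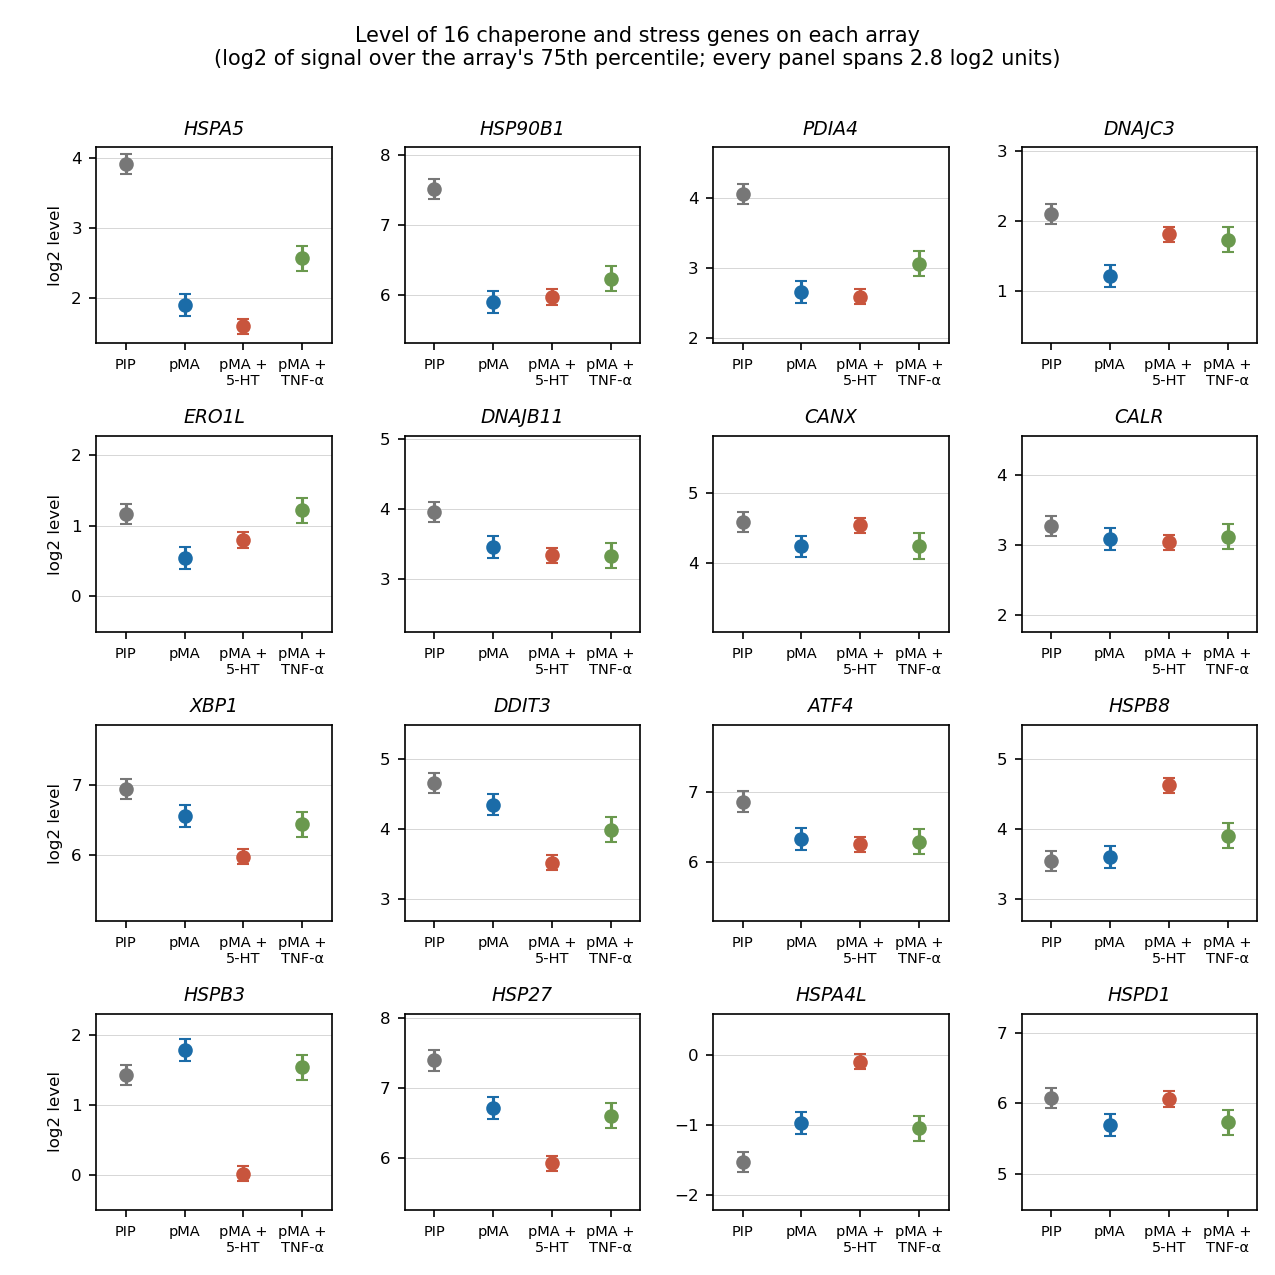
Log2 level (vertical axis, signal over the 75th percentile of the array) of chaperone and stress genes on the arrays of PIP, pMA, pMA with serotonin and pMA with TNF-α (horizontal axis), with the SD of repeated spots on that array as error bar and 1 array per group. HSPA5, HSP90B1 and PDIA4 were highest in PIP, HSPB8 was highest after serotonin, and XBP1, DDIT3, HSPB3 and HSP27 were lowest after serotonin.

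After TNF-α 7 of the 8 genes listed under the ER role were above unstimulated pMA, and none reached 2-fold. Their median log2 ratio was 0.37, beside 0.01 over all gene names. The microsomal HSPA13, outside that list, had -0.12 with all 4 probes below 0. The largest of the listed genes were ERO1L at 0.68 and HSPA5 at 0.66, followed by DNAJC3 at 0.52, PDIA4 at 0.41 and HSP90B1 at 0.33. All 8 probes of HSP90B1 lay between 0.33 and 0.53 and both probes of ERO1L at 0.64 or above. CALR (0.04) and CANX (0.01) stayed at the level of pMA, and their sign turned after scaling to the median. DNAJB11, at -0.12, was the listed member below 0. After serotonin 4 of the 8 ER members were above pMA and 4 below, with a median of 0.01. DNAJC3 (0.60) and CANX (0.30) were higher than in pMA, and HSPA5 (-0.31) was lower. ERO1L was 0.26 on its brighter probe and 0.01 on the other. HSP90B1 (0.07), PDIA4 (-0.06), CALR (-0.04) and DNAJB11 (-0.11) were within the technical SD. Compared directly, HSPA5 was 1.95-fold lower after serotonin than after TNF-α (log2 ratio -0.97), PDIA4 had -0.47, ERO1L -0.43 and HSP90B1 -0.26, with all 8 HSP90B1 probes below 0. The technical SD of this ratio was 0.21.

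Of the stress transcription factors, XBP1 and DDIT3 were lower after serotonin and ATF4 differed less. XBP1, which induces ER chaperones and the degradation machinery, was 6.94 in PIP, 6.56 in pMA, 5.97 after serotonin and 6.44 after TNF-α. Its 6 probes agreed closely on serotonin against pMA, between -0.62 and -0.57. The array measures total XBP1 transcript and does not separate the spliced form that carries the activity. DDIT3, the CHOP factor downstream of PERK, was 4.65 in PIP, 4.35 in pMA, 3.51 after serotonin and 3.99 after TNF-α, so that serotonin had the lowest level. The log2 ratio of serotonin to pMA was -0.83, and -0.86 on the second probe. TNF-α gave -0.36 and -0.12 on the same probes. ATF4, which is regulated mainly by translation, was 6.86 in PIP, 6.32 in pMA, 6.25 after serotonin and 6.29 after TNF-α. It was lower in pMA than in PIP on all 6 probes (-0.79 to -0.12). For serotonin against pMA all 6 were also below 0, from -0.25 to -0.07 with a median of -0.19. The brightest probe had the smallest of these differences. For TNF-α the probes lay between -0.03 and 0.09. None of the 3 factors differed 2-fold in any comparison.

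The small heat shock proteins showed the widest spread after serotonin. HSPB8, which works with BAG3 in the selective autophagy of misfolded proteins, was 3.55 in PIP, 3.60 in pMA, 4.62 after serotonin and 3.90 after TNF-α. Serotonin stood apart from the other arrays and was 2.02-fold above pMA. The 7 probes gave log2 ratios between 0.66 and 1.14, so that the gene lay at the 2-fold cutoff rather than beyond it: the median of the probes was 0.98. After TNF-α all 7 probes were also above 0, between 0.27 and 0.58. Its partner BAG3 had a log2 ratio to pMA of -0.18 with serotonin and of -0.27 with TNF-α, and its 5 probes were below 0 in both.

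HSPB3, a small heat shock protein known mainly from muscle, was 1.43 in PIP, 1.79 in pMA, 0.02 after serotonin and 1.54 after TNF-α. It was 3.40-fold lower after serotonin than in pMA and 2.86-fold lower than after TNF-α, the largest difference among the chaperone genes in both. HSPB3 rested on 1 probe. ACTA1 and DES, which are also muscle genes, were lower after serotonin (log2 ratios -1.94 and -1.02). Their probes ranged from -2.63 to -0.26 and from -2.59 to -0.55. The muscle markers CKM and MYOG had -0.76 and -0.01. The part of the muscle genes in the HSPB3 result was not tested. HSP27 (HSPB1), a widely expressed small heat shock protein that also binds actin, was 7.40 in PIP, 6.72 in pMA, 5.93 after serotonin and 6.61 after TNF-α. The serotonin array was the lowest, with log2 ratios to pMA of -0.79 and -0.90 on its 2 probes. HSPB2 was between -0.19 and -0.03 on all arrays. HSPBAP1, which is not a small heat shock protein but is named for binding to one, was -1.45 in pMA and -0.71 after serotonin, a log2 ratio of 0.75 on its only probe. A probe annotated as HSPB6, outside the rule, had a log2 ratio to pMA of -0.98 with serotonin and of -0.80 with TNF-α.

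Among the other HSP70 and HSP110 proteins, 7 of 8 were above pMA after serotonin (median log2 ratio 0.20, with HSP70 as a lower bound), none of them 2-fold. HSPA4L, an HSP110 protein, was -1.53 in PIP, -0.97 in pMA, -0.10 after serotonin and -1.05 after TNF-α. Serotonin was the highest, at a log2 ratio of 0.87 to pMA and 0.95 to TNF-α, on 1 probe. HSPA8, the constitutive HSP70 and among the steadiest members, was 7.73 in PIP, 7.73 in pMA, 7.55 after serotonin and 7.57 after TNF-α. HSP70.2, the porcine name of an inducible HSP70, was 2.73 in PIP, 2.30 in pMA, 2.74 after serotonin and 2.67 after TNF-α. Its 2 probes disagreed in sign for pMA against PIP (-0.43 and 0.70) and were both above 0 after serotonin (0.44 and 0.37) and TNF-α (0.37 and 0.36). HSP70, a name that matched HSPA6 in RefSeq, was faint: -3.57 in PIP, -4.48 after serotonin and -4.87 after TNF-α, and not well above background in pMA. It was at least 2.10-fold lower in pMA than in PIP. HSPA1L, at -1.27 in pMA, was -1.79 after TNF-α, the largest negative ratio of that comparison at -0.52. HSPH1, the inducible HSP110, was 3.96 in PIP and 3.28 in pMA, a ratio of -0.68 with -0.85 on its other probe. HSPA12A had a ratio of -0.35 after TNF-α, and HSPA13, a microsomal HSP70, was 0.24 after serotonin with all 4 probes above 0.

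The cytosolic HSP90 genes and the chaperonins differed by less than 2-fold in every comparison. HSP90AA1, the inducible cytosolic HSP90, was 6.69 in PIP, 6.85 in pMA, 6.52 after serotonin and 6.69 after TNF-α. All 6 probes were lower after serotonin than in pMA (-0.42 to -0.29), whereas for pMA against PIP only 2 of 6 shared the sign of the brightest probe, and scaling to the median turned it. HSPCB (HSP90AB1), the constitutive form, was 7.95 in PIP and 7.52 in pMA, with all 6 probes that had a ratio below 0, and its ratios to pMA were -0.07 after serotonin and 0.05 after TNF-α. The mitochondrial chaperonin HSPD1 (HSP60) was 6.07 in PIP, 5.69 in pMA, 6.06 after serotonin and 5.73 after TNF-α. PIP and serotonin were close together, as were pMA and TNF-α. With 20 probes it was the most densely covered gene, and all 20 were below 0 for pMA against PIP (-0.71 to -0.03) and above 0 for serotonin against pMA (0.23 to 0.55). Its co-chaperonin HSPE1 had a log2 ratio of 0.21 after serotonin with all 4 probes above 0. For pMA against PIP HSPE1 had 0.15, which turned sign after scaling to the median. The CCT subunits CCT3 (-0.57) and CCT6A (-0.67), parts of the chaperonin that folds actin and tubulin, were lower in pMA than in PIP and were 0.29 and 0.12 after serotonin.

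**Figure D3:**
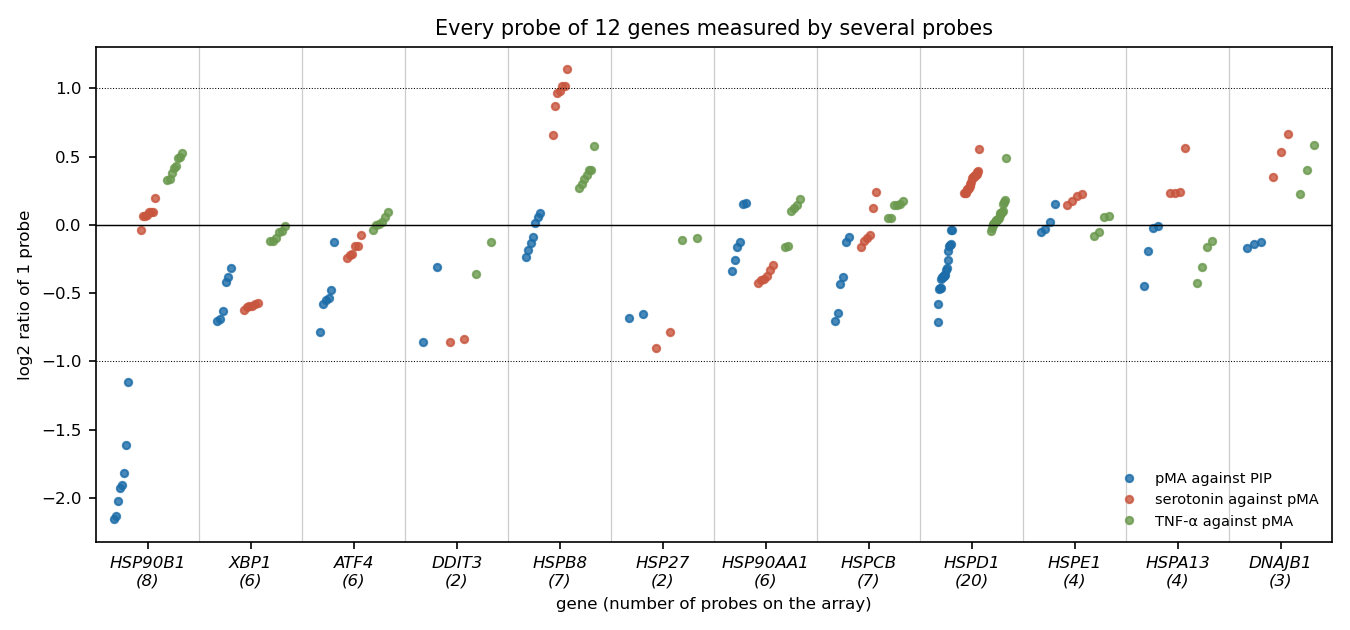
Log2 ratio of every single probe (points) of genes with several probes (horizontal axis, number of probes in brackets) in pMA against PIP, serotonin against pMA and TNF-α against pMA, with 2-fold marked by dotted lines. The 8 HSP90B1 probes lie below -1 for pMA against PIP, the 6 XBP1 probes fall within -0.62 to -0.57 for serotonin, and the 20 HSPD1 probes are all above 0 for serotonin.

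Of 17 J proteins outside the ER list, 15 had a ratio. With differentiation 5 were higher and 10 lower, and DNAJC17 was the one that passed 2-fold. It was -0.91 in PIP, -2.33 in pMA, -1.94 after serotonin and -2.10 after TNF-α, 2.68-fold lower in pMA than in PIP on 1 probe. PIP stood apart and the pMA groups were close together. DNAJC12 (0.63), DNAJA4 (0.62) and DNAJC24 (0.48) had the largest positive ratios in pMA against PIP, and both DNAJA4 probes and all 3 DNAJC12 probes had that sign. After serotonin 11 of 15 were above pMA, with a median of 0.21 beside 0.01 over all gene names. The largest was DNAJB1 (HSP40), the main partner of cytosolic HSP70 in the heat shock response, which was 3.61 in PIP, 3.48 in pMA, 4.01 after serotonin and 3.71 after TNF-α. Its 3 probes lay between 0.35 and 0.67 for serotonin and between 0.22 and 0.59 for TNF-α. A faint further probe annotated as DNAJB1, outside the rule, had the opposite sign, with log2 ratios to pMA of -1.95 (a lower bound of the change) for serotonin and -1.11 for TNF-α. The direction of DNAJB1 thus depended on the probe. After TNF-α 12 of the 15 J proteins were below pMA by a small amount (median -0.06), with DNAJA4 (-0.39), DNAJB5 (-0.38) and DNAJC12 (-0.32) the lowest. BAG6, which guards tail-anchored membrane proteins, did not differ by more than 0.13 on its brightest probe between any of the arrays compared, while its fainter probes gave up to 0.76 for pMA against PIP and 0.45 for serotonin.

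Set side by side, 46 genes had a ratio to pMA for both stimulations. Of these, 13 were above pMA in both, 14 below in both, 15 above after serotonin and below after TNF-α, and 4 the reverse. These are counts of signs, and many of the ratios were small. The quartiles of the ratios were -0.12 and 0.09 for TNF-α, within the technical SD of 0.24. Opposite signs therefore do not show opposite responses. In the direct comparison, which does not use the pMA array, 31 of 47 genes were higher after serotonin than after TNF-α and 16 lower. The median log2 ratio was 0.13, beside -0.04 over all gene names. HSPB3 alone differed 2-fold, against a background of 6.9% of 21862 gene names. By role, 13 of 15 J proteins and 7 of 8 other HSP70 and HSP110 proteins were higher after serotonin. In contrast, 5 of 8 ER members, both HSP90 genes and all 3 stress factors were lower. Of these, HSP90AA1 (-0.17), HSPCB (-0.12), CALR (-0.08) and ATF4 (-0.04) were within the technical SD of 0.21. Their sign turned under some settings of the processing. Several of the higher genes were also within that SD. They included HSP70.2 (0.07), HSPH1 (0.08) and the J proteins DNAJC11 (0.06), DNAJC17 (0.16) and DNAJB12 (0.18). DNAJB11 (0.01), DNAJC3 (0.07), BAG3 (0.09), BAG6 (0.13), CCT6A (0.10) and CCT3 (0.16) were within it as well.

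Genes of the same pathways outside the rule were counted from lists written from general knowledge. Of 6 sensors and activators of the unfolded protein response 4 were on the array, and none differed 2-fold in any comparison. ERN1 (IRE1) was between 0.18 and 0.38 on all arrays, and EIF2AK3 (PERK) was -2.90 in PIP and -2.12 in pMA. Of 20 targets of ATF6 and XBP1 9 had a ratio. In pMA 4 were at least 2-fold lower than in PIP and none 2-fold higher, with a median log2 ratio of -0.58. Over all gene names 13.5% differed 2-fold, 3.56% were 2-fold lower and the median was 0.12. SERPINH1 (HSP47), the ER chaperone of collagen, was 4.51 in PIP and 2.39 in pMA, a ratio of -2.12 that its second probe gave as -0.40. CRELD2 had a ratio of -1.36, the disulfide protein ERP44 -1.14, and SDF2L1, a partner of the DNAJB11 complex, -1.09 with 5 probes from -1.26 to -0.97. No gene of this list differed 2-fold after either stimulation. After serotonin 4 of the 9 were above pMA and 5 below (median -0.03), and after TNF-α 6 were above and 3 below (median 0.05). SDF2L1 had 0.79 after serotonin and 0.07 after TNF-α, and CRELD2 0.57 and 0.45. In the other direction after serotonin were SSR1 (-0.40), ERP29 (-0.39), SERPINH1 (-0.37), DERL3 (-0.27) and DERL1 (-0.03).

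Of 14 targets of ATF4 and CHOP 11 had a ratio, with 1 at least 2-fold higher and 1 lower in pMA than in PIP (median -0.63, background 13.5%). These were CEBPB (1.71), a factor of adipogenesis, and CTH (-1.96), an enzyme of cysteine synthesis. After serotonin 2 were at least 2-fold lower than in pMA and none higher (median -0.34), where 4.73% of all gene names were 2-fold lower and the median was 0.01. None differed 2-fold after TNF-α (median 0.08), against 3.56% of all gene names. CHAC1, which degrades glutathione, was 2.04 in PIP, 1.27 in pMA, -0.31 after serotonin and 1.35 after TNF-α. PSAT1, an enzyme of serine synthesis, was 7.46, 6.68, 5.40 and 6.57 in the same order, and its 5 probes gave -1.48 to -1.28 for serotonin against pMA. For both genes the serotonin array was the lowest, as it was for DDIT3. Of the 11 targets 4 were above pMA after serotonin: SLC7A11, the cystine transporter, by 0.97, VEGFA by 0.50 with 3 probes from 0.50 to 0.91, CEBPB by 0.14 and CTH by 0.05. WARS (-0.95) and PHGDH (-0.70) were also lower after serotonin.

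Of 17 heat shock factors and co-chaperones 10 had a ratio. FKBP5, an HSP90 co-chaperone that is a well-known glucocorticoid target, was -1.39 in PIP, 1.15 in pMA, 1.93 after serotonin and 1.76 after TNF-α. It was the only gene of this list that differed 2-fold in any comparison, 5.78-fold higher in pMA than in PIP, with 3 probes from 2.27 to 2.53. The differentiation medium held dexamethasone, and medium and differentiation cannot be told apart. After serotonin 7 of the 10 were above pMA, with a median of 0.16 beside 0.01 over all gene names. Among them were FKBP4 (0.75), CHORDC1 (0.54) and PTGES3 (0.53), all co-chaperones of HSP90, with ratios of -0.07, 0.19 and 0.15 after TNF-α. The 3 PTGES3 probes ranged from 0.08 to 0.53 for serotonin and from -0.10 to 0.15 for TNF-α. CDC37 (0.15) and UNC45A (0.07) differed less after serotonin.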

How the data were processed

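The deposited scanner files held Agilent Feature Extraction (10.7.3.1) output of a porcine array in 1 colour, Cy3, although the methods also name a mouse array, another scanner and a 2-colour protocol. The intensity used was gProcessedSignal, which the authors' software had already background-corrected. The authors' deposited value table was that signal as a linear ratio to 1 constant per array, close to its 75th percentile. The methods' p-value could not be computed with 1 array per group. Control spots and outlier spots (1 to 12 per array) were left out, values were divided by the 75th percentile of their array and taken to log2, and the probe with the highest mean stood for a gene. If 1 of 2 arrays did not measure a probe above background, its value there was raised to the lowest signal that the array did measure above background, giving "at least N-fold"; with both dim, no ratio was taken. From 56.5% to 66.0% of the probes were well above background. A call was a difference of at least 2-fold, the cutoff of the methods. The number of arrays limits the precision. Genes named were fixed stress and chaperone genes, every member past 2-fold, and the 5 highest and 5 lowest ratios in each comparison, with further members of a role to complete it. The members and all lists were chosen with earlier results of these data known. Of the 50 gene names, 37 matched RefSeq (Sscrofa11.1) by accession and 13 by symbol. Promoter sequence was not analysed here. Analyses used Python 3.11.15, pandas 2.3.3, numpy 2.4.6 and limma 3.58.1 (normexp), and were tested on simulated data. The alternatives were another scaling, background correction, filter, probe rule, value table, gene set and cutoff.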

Additional observations from a re-analysis of the deposited data

How the results depend on the processing

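With 1 array per group, the counts and medians rest on single hybridisations, and no alternative replaces a replicate. No paired analysis was possible because each group had 1 sample. Of 68 alternative values of the counts and medians of the 4 comparisons, 58 stayed close to the main value and 10 moved. Scaling to the median took the number of genes at least 2-fold lower in pMA than in PIP from 5 to 9, their median log2 ratio from -0.23 to -0.58, and the count for serotonin against TNF-α from 1 to 2. A 1.5-fold cutoff gave 13 genes for pMA against PIP, 7 for serotonin, 2 for TNF-α and 8 for serotonin against TNF-α, where 34.0%, 21.0%, 12.1% and 21.1% of all gene names passed. The median over the probes of a gene left 1 gene, HSPB3, for serotonin against pMA, since HSPB8 was then 0.98. Without a filter on dim probes 1 gene passed for TNF-α and 2 for serotonin against TNF-α. Of 8 ratios past 2-fold, all 8 kept their sign and 6 stayed past 2-fold under every setting that gave them a value. The exceptions were HSPB8 and HSP70, whose bound of -1.07 for pMA against PIP was -0.34 after normexp background correction. Low signal over background limits the ratios of HSP70 and, less so, DNAJC17.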

Other observations

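Some probes described in the annotation as chaperones carried no gene symbol and fell outside the rule. They were chosen by their description after the files were seen. HSPA9, the mitochondrial HSP70, was measured by 2 bright probes, with levels of 6.56 and 6.20 in PIP, 6.27 and 5.78 in pMA, 6.35 and 5.96 after serotonin, and 6.21 and 5.75 after TNF-α. HSPA14, DNAJC2 and DNAJC10 had log2 ratios of 0.36, 0.36 and 0.26 for serotonin against pMA and -0.14, -0.12 and -0.10 for TNF-α against pMA. The probe annotated as PDIA6, a disulfide isomerase, was 4.76 in PIP, 4.02 in pMA, 3.76 after serotonin and 4.34 after TNF-α. A faint probe annotated as SEL1L, of ER-associated degradation, was -3.32 in pMA and -2.12 after serotonin. Its log2 ratio of 1.20 was past 2-fold. The other SEL1L probe was well above background only after stimulation or in PIP cells, with a lower bound of 0.50 for serotonin against pMA. A second probe annotated as CANX, much fainter than the first, had log2 ratios of -0.85 for pMA against PIP, 0.52 for serotonin and 0.50 for TNF-α. The further probe annotated as DNAJB1 was -3.18 in pMA and -4.29 after TNF-α and not well above background in PIP or after serotonin, which gave a lower bound of 1.95 for pMA against PIP. A probe annotated as HSPD1 was well above background only after stimulation, at -4.28 with serotonin and -4.48 with TNF-α, and a further HSPA9 probe on no array.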
